A study of Capra hircus with 6 samples.

Results

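Molecular chaperones are proteins that bind other proteins while these fold, assemble, cross membranes or recover from damage. HSP70 proteins bind short stretches of unfolded chains and release them with the use of ATP, and J-proteins (gene names beginning DNAJ) bring them clients and start their ATP cycle. HSP110 proteins exchange their nucleotide, HSP90 proteins act later on partly folded clients such as kinases and receptors, and the ring-shaped CCT complex folds actin and tubulin. Each compartment has its own set, so that HSPA8 works in the cytosol, HSPA5 and HSP90B1 in the endoplasmic reticulum, and HSPA9 and HSPD1 in mitochondria.

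The chaperone genes described here were the genes of the deposited table whose names begin with HSPA, HSPB, HSP90, DNAJA, DNAJB or DNAJC and a number, or with CCT and a number from 2 to 8, together with HSPD1, HSPE1, HSPH1 and TCP1. This rule found 65 of 27271 genes by name alone, without the use of any measured value. They were 12 HSP70 and HSP110 genes, 2 HSP90 genes, the HSP60 gene HSPD1, 8 genes of the CCT group, 2 DNAJA, 9 DNAJB and 24 DNAJC genes, and 7 genes of the small heat shock protein names. The set is wider than cytosolic chaperones. By their known location, 11 of the 65 belong to the endoplasmic reticulum and 7 to mitochondria, and the other 47 hold the cytosolic and nuclear chaperones along with genes of uncertain or other location. Among these, HSPB11 carries a small heat shock protein name but encodes a protein of cilia. Several well-known chaperones, HSP90AB1, HSPE1, HSPA1A, HSPA4, DNAJA1, DNAJB1, CCT4 and CCT6A among them, were not found under these names and were not analysed here.

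The cells were intramuscular preadipocytes, the fat precursor cells of muscle, grown from the longissimus dorsi of Jianzhou goats 3 days old. The NC groups (n = 3, wild type in the labels) received a control siRNA and the Si-LIPG groups (n = 3, labelled as LIPG knock down) an siRNA against LIPG, the gene of endothelial lipase, and both were induced to form fat for 48 h with oleic acid at 50 μmol/L. The comparison asks which transcripts differed after the knockdown. The methods of the study call its replicates biological. Whether the 3 libraries of a group came from separate animals or from separate cultures of shared cells was not given in the sources used here, and the p values below measure the spread between these libraries.

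Few of the reads were counted on genes, and this bears on each value below. The libraries held 36451898 to 52638817 reads, of which a small share was counted on genes. It was 1.31% ± 0.279 for NC and 2.44% ± 0.566 for Si-LIPG (SD, n = 3 each), or 524776 to 703680 and 864882 to 1051230 reads. LIPG itself had 0, 2 and 0 counts in the NC groups and 0, 2 and 2 in the Si-LIPG groups. These counts are not above the limit of 3 that a count of 0 allows (2.85 to 5.72 CPM, counts per 1000000 reads counted on genes; counting error only), so a knockdown was not detectable in these counts. The study reports the knockdown by other means, with RT-qPCR and, for the siRNA it went on to use, with Western blot. The mitochondrial gene ND6 took 5.93% to 9.27% of the reads on genes in the NC groups and 3.04% to 5.39% in the Si-LIPG groups, and the group with more ND6 was the group with fewer reads on genes. ND6 is the protein gene of mitochondrial DNA that lies on the opposite strand from the other 12, and it had 22.6 to 99.3 times their median count per kilobase. The library protocol keeps the strand of each read, but the strand setting of the counting was not given in the sources used here. Whether the counts of a gene are of reads from its own transcripts or from the opposite strand was not tested, and each count, FPKM and fold change below, and each gene listed at 0, is a statement on the counted reads. Mesenchymal markers, with COL1A1 the most abundant, summed to 6386 to 12488 CPM in the NC groups and 16854 to 17792 in the Si-LIPG groups, and 6 of the 8 that were in the table were counted in every library, with DLK1 at 0. Of 7 adipocyte markers 1 was counted in every library, with LPL at 0 and sums of 3.81 to 36.5 and 10.5 to 31.6 CPM. Myogenic markers were counted too (6 in the table, 3 in every library, 276 to 387 and 471 to 531 CPM), whereas endothelial markers (5, of which CDH5, KDR and TEK were at 0) reached at most 7.12 and immune markers (5, of which PTPRC and ITGAM were at 0) at most 41.5. The part of these shares in the results below was not tested, and in such bulk samples fewer cells of a type and less RNA per cell cannot be told apart.

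Chaperone genes took a larger share of the counted reads in every Si-LIPG library than in every NC library. Most genes moved in this direction on this scale. Of 6574 genes tested, 5086 had a log2 fold change above 0 when scaled to the reads on genes, with a median of 0.74. Of the 33 chaperone genes among them, 27 were above 0. In the order of the replicate numbers, which is kept throughout, the 65 genes held 0.297%, 0.581% and 0.561% of the reads on genes in the NC groups against 0.695%, 0.942% and 1.05% in the Si-LIPG groups. The means were 0.479% ± 0.158 and 0.895% ± 0.181 (SD, n = 3 each). NC library 1 stood lowest and Si-LIPG library 3 highest, an order that followed the share of reads on genes in each library except that NC libraries 2 and 3 changed places. A few genes carried the sum. The 5 chaperones with the highest mean FPKM over the 6 libraries (HSPA8, HSP90B1, HSP90AA1, HSPA5 and HSPA9) made up 53.8% to 68.2% of the chaperone counts of a library.

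Of the 65 genes, 30 had a count in all 6 libraries, 28 in some of them and 7 in none (10.8%, against 45.6% of all genes). The 7 were CCT8L2, DNAJB8, DNAJB13, DNAJC22, DNAJC28, DNAJC5B and DNAJC5G. By level per length (FPKM, which is CPM per kilobase of gene), HSPA8, the constitutive HSP70 of the cytosol, was the highest of the 65 by mean. It had 140, 307 and 328 FPKM in the NC groups and 409, 657 and 716 FPKM in the Si-LIPG groups. HSP90B1, the HSP90 of the endoplasmic reticulum, followed with 67.5, 178 and 169 FPKM against 297, 521 and 573 FPKM. HSP90AA1, the inducible HSP90 of the cytosol, had 127, 266 and 229 FPKM against 246, 319 and 346 FPKM. HSPA5, also known as BiP, the HSP70 of the endoplasmic reticulum, had 67.9, 191 and 155 FPKM against 238, 358 and 418 FPKM, and HSPA9, the HSP70 of mitochondria, had 52.3, 213 and 178 FPKM against 251, 312 and 344 FPKM. Within the NC groups the 5 means lay between 138 and 258 FPKM with SDs of 61.4 to 103. These SDs are spreads between libraries and do not compare genes within a library. In each NC library HSPA8 was above HSP90AA1, and HSP90AA1 was above HSPA9. In the Si-LIPG groups the order was HSPA8 (594 ± 163 FPKM), HSP90B1 (464 ± 147 FPKM), HSPA5 (338 ± 91.5 FPKM), HSP90AA1 (304 ± 51.6 FPKM) and HSPA9 (302 ± 47.6 FPKM). In each Si-LIPG library HSPA8 was above HSP90B1, and HSP90B1 was above HSPA5. The order of HSPA5, HSP90AA1 and HSPA9 differed between these libraries. Differences between these genes were not tested here. The level of HSP90AA1 rests on a gene model of 6543 bp in the table, against 2541 bp for HSP90B1, and in counts HSP90AA1 was the highest chaperone of every library (437, 1048 and 1053 counts in the NC groups, 1393, 2053 and 2379 in the Si-LIPG groups).

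**Figure D1:**
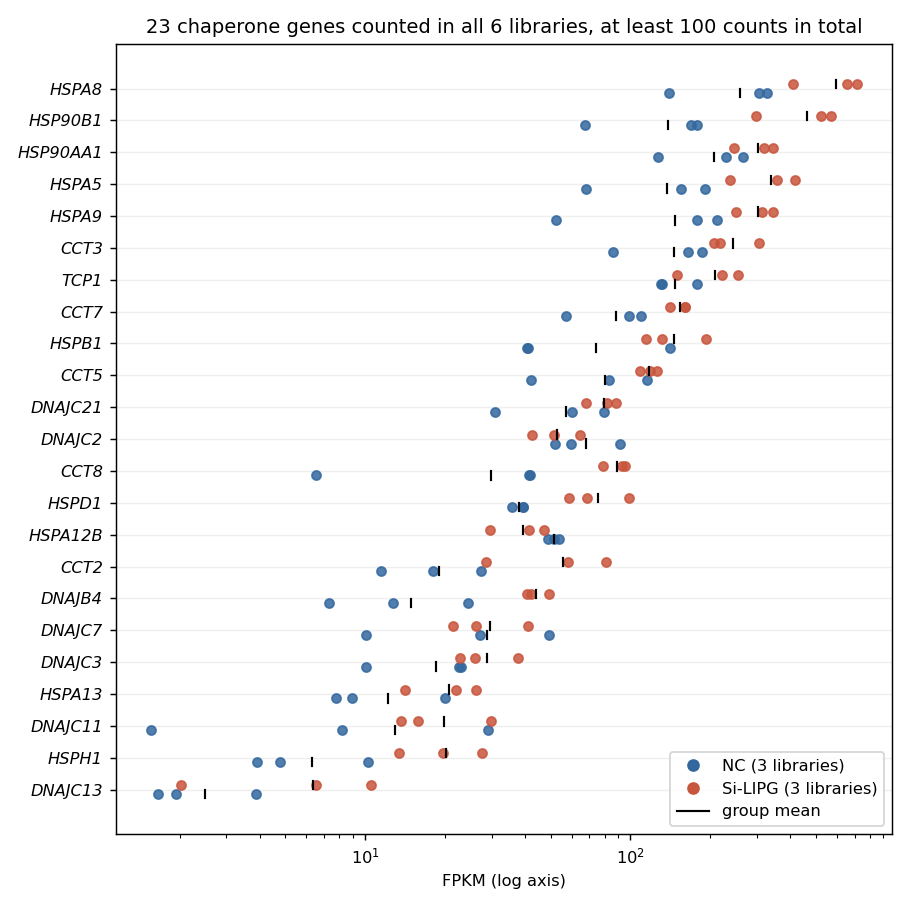
FPKM on a log axis of the 23 chaperone genes counted in all 6 libraries with at least 100 counts in total, ordered by mean FPKM, with a point for each library (blue NC, red Si-LIPG) and a bar for each group mean. HSPA8 is at the top with 140 to 716 FPKM, and NC library 1 is the lowest point of HSPA8, HSP90B1, HSP90AA1, HSPA5 and HSPA9.

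After TMM scaling, which sets the bulk of genes equal between libraries, 33 of the 65 genes had enough counts to be tested. By the criterion of the study, an unadjusted p under 0.05 with a fold change over 1.5, 9 of the 33 were called, 7 higher and 2 lower in the Si-LIPG groups. This is 27.3% of the 33, against a background of 20.7% of the 6574 genes tested (7.83% called higher and 12.9% called lower). Directions here follow the groups in the sample titles. The study reports more genes upregulated than downregulated after the knockdown, the reverse of this balance, and the reason was not tested. Higher were HSP90B1, HSPA5, HSPH1, CCT2, CCT8, DNAJC10 and DNAJC19, and lower were HSPA12B and DNAJC2. DNAJC19 had at most 3 counts in an NC library. With Benjamini-Hochberg adjustment over the 6574 genes, 1 of the 33, HSP90B1, had an edgeR adjusted p under 0.05, against 6.51% of all genes tested (0.974% higher and 5.54% lower). The median log2 fold change of the 33 was 0.37, beside 0.16 over all genes tested, and 24 of the 33 were above 0, beside 58.4% of all genes tested. Without NC library 1 this median was 0.16, beside 0.12 over all genes tested. Without Si-LIPG library 2 the number of chaperone genes past the criterion was 2 of 33, against 234 higher and 654 lower of 6709 genes tested. Without Si-LIPG library 3 it was 4 of 33, against 239 higher and 632 lower of 6654. In TMM-scaled values the groups did not overlap for 11 of the 33, 8 of them higher and 3 lower, against a background of 28.7% (15.2% higher and 13.4% lower).

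**Figure D2:**
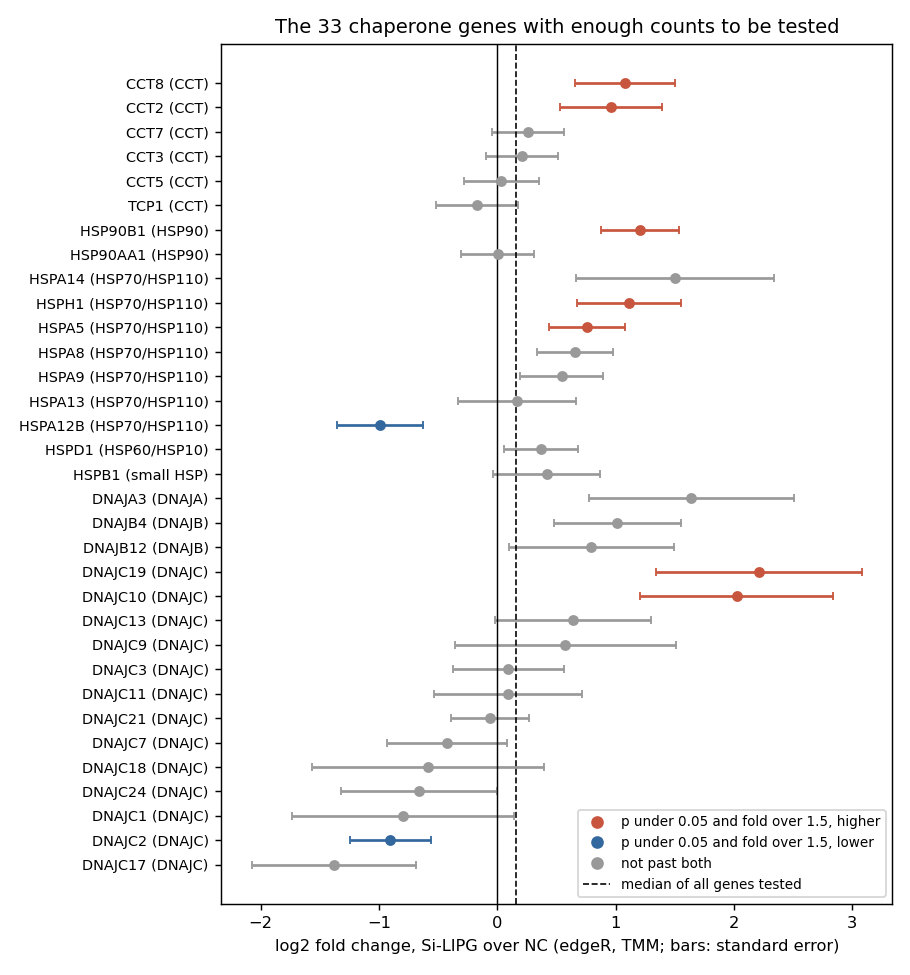
Log2 fold change of Si-LIPG over NC for the 33 chaperone genes tested, by family, with bars of 1 standard error (edgeR, TMM scaling). The 7 genes called higher (red) lie between 0.76 and 2.21, the 2 called lower (blue) at -0.99 and -0.90, and the dashed line marks the median of all genes tested at 0.16.

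The size of these changes, and for 2 of the 9 called genes the direction, depended on how the libraries were scaled, and each scaling moved all genes together. The median log2 fold change of all genes tested was 0.16 after TMM, 0.74 when scaled to the reads on genes and 1.58 when scaled to all reads of a library. The median of the 33 chaperone genes moved with it, from 0.37 to 0.98 and 1.68, so that relative to all genes it was higher by 0.21, 0.25 and 0.09. Scaled to the reads on genes, 15 of the 33 were called, all 15 higher, against a background of 24.2% higher and 6.01% lower. Scaled to all reads, 22 were called, all 22 higher, against 46.1% higher and 0.0304% lower. In RPM, reads per 1000000 of all reads in a library, 21 of the 33 had every Si-LIPG library above every NC library, as did 51.9% of all genes tested. HSPA12B and DNAJC2, which fell after TMM, had positive log2 fold changes of 0.52 and 0.44 when scaled to all reads. Scaled to the reads on genes they kept a negative sign, at -0.36 and -0.35, without passing the criterion, and neither passed it at 10 counts or more in every library (-0.71 and -0.65). A change of scaling shifts all genes by nearly the same amount. Values taken relative to the median of all genes therefore move little by construction, and this is no test of the calls. HSP90B1 lay 1.05, 1.03 and 1.04 above that median under the 3 scalings, and HSPA12B lay at -1.15, -1.10 and -1.07.

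**Figure D3:**
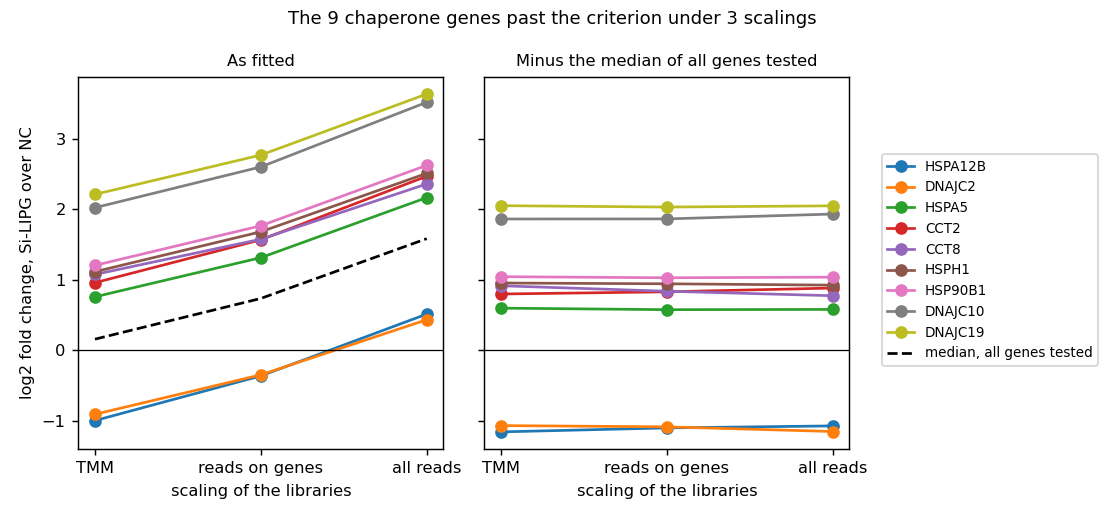
Log2 fold change of the 9 chaperone genes called, under TMM, scaling to the reads on genes and scaling to all reads, as fitted (left) and after the median of all genes tested was taken off (right). On the left the lines rise with the dashed median from 0.16 to 1.58 and HSPA12B and DNAJC2 change sign. On the right the lines are nearly level, which the subtraction brings about for any gene.

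HSP90B1, known as GRP94, folds secreted and membrane proteins and is one of the abundant proteins of the endoplasmic reticulum. It had 90, 272 and 303 counts in the NC groups and 653, 1301 and 1530 counts in the Si-LIPG groups. In TMM-scaled CPM these were 292, 490 and 478 against 737, 1060 and 1118, and each Si-LIPG library was above each NC library. The log2 fold change was 1.21 ± 0.33 (SE), a 2.31-fold higher level, with an edgeR adjusted p of 0.045. The gene was past the criterion in the 6 fits that each left out 1 library, with log2 fold changes between 0.98 and 1.33. The edgeR adjusted p was 0.0279 without Si-LIPG library 1, but 0.1 without NC library 1, 0.0811 without NC library 2, 0.0699 without NC library 3, 0.258 without Si-LIPG library 2 and 0.267 without Si-LIPG library 3. With DESeq2 the adjusted p was 0.0041.

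HSP90AA1, its counterpart in the cytosol, was not called. Its TMM-scaled levels were 1417, 1888 and 1659 CPM in the NC groups and 1572, 1673 and 1738 in the Si-LIPG groups, which overlapped. The log2 fold change was 0.0048 ± 0.31 (SE; edgeR adjusted p = 0.995), a value that lay between -0.11 and 0.11 when each library was left out. In RPM of all reads it was higher in the Si-LIPG groups (49.7 ± 18.7 against 18.6 ± 8.95, SD, n = 3 each), a log2 fold change of 1.42 that was below the median of all genes on that scale.

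The ratio of the HSP90 genes within a library does not depend on the scaling between libraries. HSP90B1 over HSP90AA1, in FPKM, was 0.53, 0.668 and 0.741 in the NC groups and 1.21, 1.63 and 1.66 in the Si-LIPG groups. HSP90B1 was thus below HSP90AA1 in FPKM in the 3 NC libraries and above it in the 3 Si-LIPG libraries. This crossing rests on the gene lengths of 2541 bp for HSP90B1 and 6543 bp for HSP90AA1. In counts HSP90B1 was below HSP90AA1 in every library. The difference in log2 ratio between the groups does not depend on these lengths. The log2 ratio differed by 1.21 (p = 0.1 by a two-sided exact permutation test, which cannot go lower with 3 libraries a group; adjusted p = 0.5 over 5 ratios), and by 1.08 to 1.36 when each library was left out. This pair and HSPA9 over HSPA8 were chosen after the values were seen.

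Of the HSP70 and HSP110 genes, 7 of 12 were tested, and 2 were called higher and 1 lower, beside 7.83% and 12.9% of all genes tested. HSPA5 binds new chains in the endoplasmic reticulum and holds the sensors of the unfolded protein response in check. It had 86, 277 and 263 counts in the NC groups and 497, 848 and 1060 in the Si-LIPG groups, or 279, 499 and 414 against 561, 691 and 774 CPM after TMM. The groups did not overlap, and the log2 fold change was 0.76 ± 0.32 (SE; edgeR adjusted p = 0.186). HSPH1, the HSP110 that exchanges the nucleotide of HSPA8, had 10, 14 and 35 counts in the NC groups and 83, 64 and 141 in the Si-LIPG groups. Its log2 fold change was 1.12 ± 0.44 (SE; edgeR adjusted p = 0.149), and the TMM-scaled value of Si-LIPG library 2 (52.1 CPM) lay below that of NC library 3 (55.2). HSPA5 was past the criterion in 2 of 6 fits that left out a library, and missed it without NC library 1, NC library 3, Si-LIPG library 2 and Si-LIPG library 3 (edgeR adjusted p = 0.332, 0.266, 0.519 and 0.577). HSPH1 was past it in 3 of 6, and missed it without NC library 2, Si-LIPG library 1 and Si-LIPG library 3 (edgeR adjusted p = 0.322, 0.318 and 0.504).

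HSPA12B, a distant relative of HSP70 known from endothelial cells, was the HSP70 gene called lower. It had 59, 62 and 76 counts in the NC groups and 75, 61 and 104 in the Si-LIPG groups, so its raw counts overlapped. After TMM the levels were 191, 112 and 120 against 84.6, 49.7 and 76 CPM, which did not overlap. The log2 fold change was -0.99 ± 0.36 (SE; edgeR adjusted p = 0.119). Without Si-LIPG library 2 the gene missed the criterion (edgeR adjusted p = 0.511). In RPM of all reads the gene had 1.41 ± 0.267 in the NC groups and 2.02 ± 0.726 in the Si-LIPG groups (SD, n = 3 each), an overlap with the opposite direction. Of the 5 endothelial markers, CDH5, KDR and TEK were at 0 in the 6 libraries, PECAM1 had 4 counts in NC library 2 and 6 in Si-LIPG library 2, and VWF had 1 in Si-LIPG library 2.

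The other abundant HSP70 genes, HSPA8 and HSPA9, did not pass the criterion with edgeR after TMM, but did under other settings. HSPA8 had 548, 767 and 840 CPM after TMM in the NC groups and 922, 1212 and 1269 in the Si-LIPG groups. The groups did not overlap, and the log2 fold change was 0.66 ± 0.32 (SE; edgeR adjusted p = 0.257). With DESeq2, the tool the study names, HSPA8 was past the criterion (log2 fold change 0.65, DESeq2 adjusted p = 0.164), as it was with edgeR without a filter on low counts (0.73), at 10 counts or more in every library (0.92) and scaled to the reads on genes (1.22). HSPA9 had 182, 470 and 402 CPM against 499, 510 and 539, with NC library 1 far below the others (log2 fold change 0.55 ± 0.35, SE; edgeR adjusted p = 0.421). It was past the criterion at 10 counts or more in every library (0.78) and scaled to the reads on genes (1.05). HSPA13, an HSP70 of the endoplasmic reticulum, had a log2 fold change of 0.17 ± 0.5 (SE), and HSPA14, which works with ribosomes, one of 1.502 ± 0.84 on 0 to 42 counts per library. Without NC library 3 the log2 fold change of HSPA14 was 2.81 and past the criterion (edgeR adjusted p = 0.131). The NC counts of HSPA14 left in that fit were 3 and 0, not above the limit of 3 that a count of 0 allows. The size of that fold change is therefore uncertain. HSPA2, the HSP70 abundant in testis, had 0, 1 and 2 counts in the NC groups and 14, 4 and 2 in the Si-LIPG groups and was not tested.

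The ratios among HSP70 genes within a library overlapped between the groups. HSPA5 over HSPA8 was 0.487, 0.622 and 0.472 in the NC groups and 0.582, 0.545 and 0.584 in the Si-LIPG groups, a difference of 0.12 on the log2 scale (two-sided exact permutation test, p = 0.4). HSPA9 over HSPA8 was 0.375, 0.693 and 0.541 against 0.612, 0.476 and 0.48, a log2 difference of -0.0021 (exact permutation test, p = 1.0). HSPH1 over HSPA8 was 0.028, 0.0156 and 0.0311 against 0.0481, 0.0204 and 0.0384, a log2 difference of 0.49 (exact permutation test, p = 0.4). With 3 libraries a group no ratio could give a p under 0.1, and whether the HSP90 and HSP70 ratios differed from each other was not tested.

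**Figure D4:**
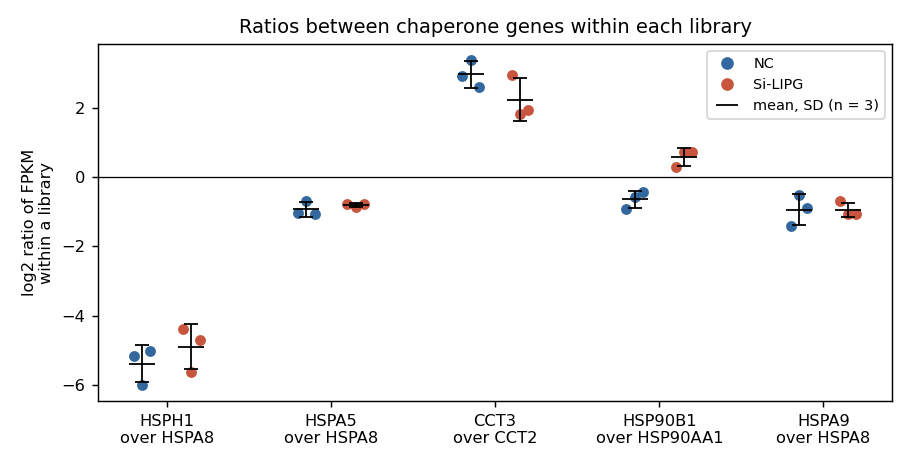
Log2 ratio of FPKM of 5 pairs of chaperone genes within each library (points; blue NC, red Si-LIPG), with the mean and SD of each group (n = 3). The groups do not overlap for HSP90B1 over HSP90AA1, with NC values from -0.92 to -0.43 and Si-LIPG values from 0.27 to 0.73, and overlap for the other pairs.

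HSPD1, the HSP60 of mitochondria, had 88, 111 and 130 counts in the NC groups and 238, 454 and 339 in the Si-LIPG groups. After TMM the levels were 285, 200 and 205 against 269, 370 and 248 CPM, which overlapped (log2 fold change 0.37 ± 0.31, SE; edgeR adjusted p = 0.571). In the RefSeq annotation of the goat its gene overlaps HSPE1, its partner chaperonin, so that reads of the pair may not be told apart without the strand.

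The CCT complex is a double ring built from 8 different subunits, each coded by its own gene, and works as a whole. Of the 8 genes found by the rule 6 code for subunits that were tested (TCP1, CCT2, CCT3, CCT5, CCT7 and CCT8). The others were CCT6B, a testis subunit with 8 counts in NC library 1 and 0 elsewhere, and CCT8L2 at 0. CCT2 and CCT8 were called higher in the Si-LIPG groups, beside 7.83% of all genes tested, and the other 4 were not called. CCT8 had 6, 44 and 51 counts in the NC groups and 119, 164 and 171 in the Si-LIPG groups. In TMM-scaled CPM it had 19.5, 79.3 and 80.4 against 134, 134 and 125, without overlap and with NC library 1 far below the others (log2 fold change 1.08 ± 0.42, SE; edgeR adjusted p = 0.148). CCT8 was past the criterion without NC library 1, and missed it without Si-LIPG library 1 and Si-LIPG library 2 (edgeR adjusted p = 0.257, 0.268 and 0.384). RefSeq places another gene, LOC108636233, over CCT8.

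CCT2 had 10, 18 and 32 counts in the NC groups and 41, 95 and 141 in the Si-LIPG groups. After TMM it had 32.4, 32.4 and 50.4 against 46.3, 77.4 and 103 CPM, and Si-LIPG library 1 lay below NC library 3 (log2 fold change 0.96 ± 0.43, SE; edgeR adjusted p = 0.216). It was past the criterion in 2 of 6 fits that left out a library, and missed it without NC library 1, NC library 2, Si-LIPG library 2 and Si-LIPG library 3 (edgeR adjusted p = 0.342, 0.364, 0.496 and 0.683). With DESeq2 CCT2 missed it too (log2 fold change 0.96, DESeq2 adjusted p = 0.316). The other subunits had log2 fold changes of 0.26 ± 0.30 (CCT7), 0.21 ± 0.30 (CCT3), 0.03 ± 0.32 (CCT5) and -0.17 ± 0.35 (TCP1), with edgeR adjusted p values of 0.693 to 0.969. TCP1 had 509 CPM after TMM in NC library 1, against 238 and 241 in NC libraries 2 and 3, while the Si-LIPG groups had 245, 297 and 328, and its log2 fold change was 0.26 without NC library 1 and 0.54 or 1.497 when scaled to the reads on genes or to all reads. Its gene overlaps ACAT2 in RefSeq. The ratio of CCT3 to CCT2 was 7.499, 10.3 and 6.02 in the NC groups and 7.64, 3.54 and 3.79 in the Si-LIPG groups, a log2 difference of -0.73 (two-sided exact permutation test, p = 0.3).

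The subunits are used in equal numbers in the ring, and the counted reads of their genes were unequal in FPKM. Whether these values reflect the levels of the transcripts was not tested. In NC library 1 the highest subunit in FPKM, TCP1, was 27.4 times the lowest, CCT8, which had 6 counts there. In NC libraries 2 and 3 CCT3 was 10.3 and 6.02 times CCT2, and in Si-LIPG libraries 1, 2 and 3 the highest subunit was 7.64, 3.81 and 3.79 times CCT2. CCT2 was thus the lowest subunit in 5 of 6 libraries.

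**Figure D5:**
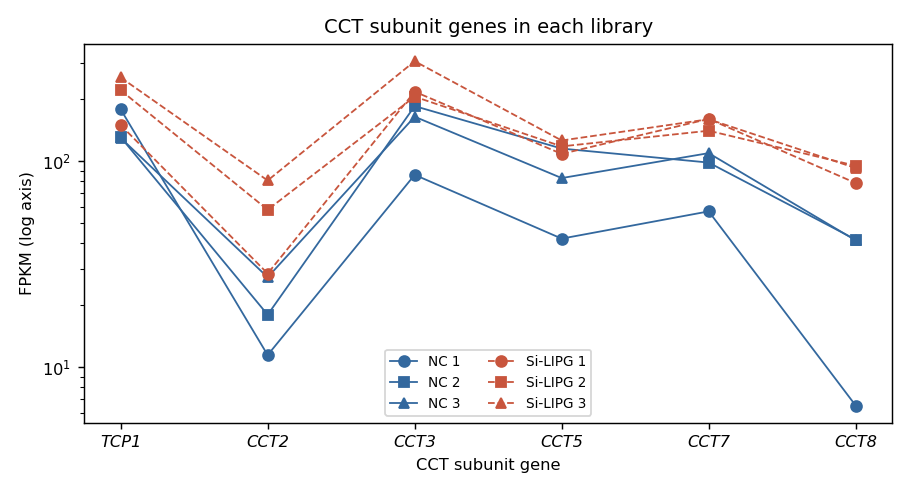
FPKM on a log axis of the 6 CCT subunit genes tested, with a line for each library (blue NC, red dashed Si-LIPG). CCT2 is the lowest subunit in 5 libraries, and CCT8 in NC library 1 is the lowest value at 6.53 FPKM.

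The J-proteins were many and lowly counted. Of 35 genes (2 DNAJA, 9 DNAJB and 24 DNAJC), 16 were tested, and 0 had an adjusted p under 0.05 with edgeR or with DESeq2. By the criterion 2 of the 16 were called higher and 1 lower, beside 7.83% and 12.9% of all genes tested. DNAJC10, also known as ERdj5, a reductase that works with HSPA5 in the endoplasmic reticulum, had 0, 8 and 7 counts in the NC groups and 9, 49 and 88 in the Si-LIPG groups. After TMM Si-LIPG library 1 (10.2 CPM) lay among the NC libraries (0, 14.4 and 11), below Si-LIPG libraries 2 and 3 (39.9 and 64.3). The log2 fold change was 2.02 ± 0.82 (SE; edgeR adjusted p = 0.16), and without Si-LIPG library 2 or 3 the gene had too few counts to be tested. DNAJC19, part of the motor that draws proteins into mitochondria, had 1, 3 and 2 counts in the NC groups and 16, 20 and 31 in the Si-LIPG groups, without overlap. The NC counts of DNAJC19 were not above the limit of 3 that a count of 0 allows. The gene passed the filter on counts only through its Si-LIPG counts, so the size of its fold change is uncertain. Its log2 fold change was 2.21 ± 0.87 (SE; edgeR adjusted p = 0.15). It missed the criterion without NC library 3 and without Si-LIPG library 1, 2 or 3 (edgeR adjusted p = 0.252, 0.294, 0.454 and 0.578).

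DNAJC2, which binds the ribosome and assists new chains, was the J-protein called lower. It had 72, 95 and 170 counts in the NC groups and 147, 133 and 118 in the Si-LIPG groups, or 233, 171 and 268 against 166, 108 and 86.2 CPM after TMM. The TMM-scaled groups did not overlap, and the log2 fold change was -0.90 ± 0.34 (SE; edgeR adjusted p = 0.134). DNAJC2 missed the criterion without NC library 3, Si-LIPG library 2 and Si-LIPG library 3 (edgeR adjusted p = 0.294, 0.49 and 0.574), and without Si-LIPG library 1 its adjusted p was 0.0491. In RPM of all reads the gene had 2.43 ± 1.17 in the NC groups and 3.29 ± 0.253 in the Si-LIPG groups (SD, n = 3 each), the opposite direction. Its gene overlaps PMPCB in RefSeq.

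The other 13 J-proteins tested had log2 fold changes between -1.38 (DNAJC17) and 1.64 (DNAJA3), with edgeR adjusted p values of 0.277 or more. DNAJC7, which passes clients between HSP70 and HSP90, had 25.9, 81.1 and 45.7 CPM after TMM in the NC groups and 60.9, 31.8 and 24.8 in the Si-LIPG groups. These overlapped, and its fold change of -0.42 ± 0.51 (SE) on the log2 scale became 0.04 when scaled to the reads on genes. DNAJB4, a cytosolic partner of HSPA8, was higher in each Si-LIPG library (42.9, 34.2 and 39.4 CPM after TMM) than in each NC library (13, 14.4 and 28.4) without passing the criterion (log2 fold change 1.01 ± 0.54, SE; edgeR adjusted p = 0.308). DNAJA3, a J-protein of mitochondria, had 0, 2 and 13 counts in the NC groups and 34, 42 and 18 in the Si-LIPG groups, and RefSeq places other genes over it. Without NC library 3, DNAJA3 and DNAJB4 were past the criterion with log2 fold changes of 3.59 and 1.49 (edgeR adjusted p = 0.0669 and 0.182), DNAJA3 also without Si-LIPG library 3 (2.004), and DNAJC17 without NC library 2 (-1.74). The NC counts of DNAJA3 left without NC library 3 were 0 and 2, not above the limit of 3 that a count of 0 allows. The size of its fold change in that fit is therefore uncertain. The 13 DNAJC genes tested had a median log2 fold change of -0.06, below the 0.16 of all genes tested, and 6 of them were above 0.

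The small heat shock proteins hold unfolded proteins without ATP and are abundant in muscle. HSPB1 alone of the 7 genes was tested. It had 13, 15 and 60 counts in the NC groups and 60, 115 and 84 in the Si-LIPG groups, and after TMM the groups overlapped (log2 fold change 0.42 ± 0.46, SE; edgeR adjusted p = 0.675). Without NC library 3 it was past the criterion, with a log2 fold change of 1.14 and an edgeR adjusted p of 0.177. HSPB6 had 1, 5 and 13 counts in the NC groups and 11, 5 and 38 in the Si-LIPG groups, and HSPB8, which works with BAG3 in muscle, had 2, 1 and 0 counts against 4, 3 and 12. HSPB7, HSPB9, HSPB3 and HSPB11 had at most 13, 9, 6 and 2 counts in a library.

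By location, 3 of 8 tested genes of the endoplasmic reticulum were called higher (HSP90B1, HSPA5 and DNAJC10) and none lower, beside 7.83% and 12.9% of all genes tested, with a median log2 fold change of 0.46. The others of that location were HSPA13, DNAJC1, DNAJC3, DNAJC18 and DNAJB12, with log2 fold changes between -0.80 and 0.80. HYOU1, SIL1 and SEC63, helpers of that location from the list of co-chaperones below, were not in these counts. They were not called, with log2 fold changes of 0.16, 0.06 and 0.40 (edgeR adjusted p = 0.851, 0.97 and 0.705). Of 5 tested mitochondrial genes 1 was called higher (DNAJC19, with 1, 3 and 2 counts in the NC groups) and the median was 0.55. Of the 20 tested genes of the cytosol or other places, 3 were called higher (HSPH1, CCT2 and CCT8) and 2 lower (HSPA12B and DNAJC2), with a median of 0.23. Relative to the median of all genes, these medians were 0.30, 0.39 and 0.07.

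The 32 genes that were not tested were the 7 at 0 and 25 with at most 38 counts in a library. For a gene at 0, a count of 0 allows up to 3 counts per library, so that low levels of these genes were not detectable in these counts.

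Co-chaperones and other helpers of the same pathway (BAG proteins, prefoldin and tubulin-folding factors, HSP90 helpers, nucleotide exchange factors and the heat shock factors) were 47 of 60 genes of a list drawn up by hand. Of 32 tested, 2 were called higher and 2 lower, or 12.5% against the background of 20.7%, and 0 had an adjusted p under 0.05 with edgeR, but 2, STUB1 and HSF2, with DESeq2. TBCB, a tubulin-folding helper, had 1, 16 and 20 counts in the NC groups and 58, 85 and 88 in the Si-LIPG groups (log2 fold change 1.54 ± 0.53, SE; edgeR adjusted p = 0.0975). URI1, a prefoldin-like protein, had 0, 2 and 12 counts against 17, 32 and 59 (1.79 ± 0.84, SE; edgeR adjusted p = 0.241). STUB1, the ubiquitin ligase CHIP that takes clients of HSPA8 and HSP90 to degradation, had 678, 537 and 667 counts in the NC groups and 707, 528 and 527 in the Si-LIPG groups, and its gene overlaps JMJD8 in RefSeq. HSF2, a heat shock transcription factor, had 3459, 2703 and 3296 counts against 3583, 2762 and 2917. The log2 fold changes of these after TMM were -1.38 ± 0.40 for STUB1 and -1.34 ± 0.42 for HSF2 (SE; edgeR adjusted p = 0.0523 and 0.0721), but 0.12 and 0.19 when scaled to all reads. Their raw counts were thus nearly level across the libraries, unlike those of HSPA8 or HSP90B1, and HSF2 alone had more counts than any chaperone. HSF1, the main activator of heat shock genes, had 4, 15 and 13 counts in the NC groups and 34, 40 and 38 in the Si-LIPG groups, and did not pass the criterion (log2 fold change 0.66 ± 0.54, SE; edgeR adjusted p = 0.549).

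Groups of genes with other work in protein turnover gave a measure of what the chaperone counts stood against. Of 35 proteasome subunit genes 29 were tested, and 2 were called higher and 2 lower (13.8%, against the background of 20.7%). Their median log2 fold change was 0.34, close to the 0.37 of the chaperone genes. Of 39 genes of the cytosolic ribosome 30 were tested, 2 were called higher (6.67%), and the median of the 30 was 0.15. The differences between these lists and the chaperone genes were not tested.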

How the data were processed

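RNA-seq libraries of 3 NC and 3 Si-LIPG samples were analysed, with groups and replicate numbers taken from the sample titles. The authors deposited raw counts per gene, 1 file per library with further rows for reads on no gene, and FPKM values, in which each count is divided by the length of the gene and the counted reads of the library. The submitters' processing notes name fastp, HISAT2, SAMtools and HTSeq. Versions, genome build and strand setting were not given in the sources used here, and coordinates were therefore not printed. The rows that name no gene (reads on no feature were 91.6% to 93.7% of a library) entered neither library sizes nor tests, except when scaling to all reads.

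Counts were filtered with filterByExpr by group (6574 genes), scaled by TMM and tested with the edgeR 4.0.16 quasi-likelihood test without covariates in R 4.3.3. The criterion was the study's, a fold change over 1.5 at an unadjusted p under 0.05. DESeq2 1.42.0, limma 3.58.1 on log2(FPKM + 1) and log2(FPKM + 0.1), other scalings and filters, a replicate block and leaving out each library were the alternatives. Ratios were taken only where both genes had at least 10 counts in every library, which held for 3 of 8 pairs considered, and 2 pairs were added after the values were seen. The fits were tested on simulated data. Genes were named by rule: members past the criterion, a list of well-known chaperones, co-chaperones past the criterion and the 5 members highest in mean FPKM. HSPA13, HSPA14, DNAJA3, DNAJB4, DNAJC17, HSF1, HYOU1, SIL1, SEC63 and the untested genes named beyond that list were chosen after their values were seen. The members and lists were chosen with earlier results of these data known. Overlapping genes came from the RefSeq annotation of assembly ARS1.2, in which 63 of 65 members were found. Of these, 10 overlapped another gene, DNAJC17 among them. Another gene lay over or within 1000 bp of 27, among them HSP90B1, HSPA9 and HSPA12B, and also within that distance of HSF2 and TBCB. The part of such neighbours in the counts was not tested. No sequence was used here. No replicate library was a copy of another, since their counts differed by 4.21 to 12.5 in chi-square per degree of freedom.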

Additional observations from a re-analysis of the deposited data

Results flagged for a closer look

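Among the chaperone genes with too few counts to be tested, 3 were at 0 in the NC groups with over 3 counts (the limit that a count of 0 allows) in a Si-LIPG library, and 1 had over 3 counts in every Si-LIPG library and a higher CPM there than in every NC library. DNAJB14, a J-protein of the endoplasmic reticulum, had 10, 4 and 12 counts in the Si-LIPG groups, the lowest of them 4, and 2, 0 and 0 in the NC groups. DNAJB9, a J-protein that works with HSPA5, had 20 counts in Si-LIPG library 3 and 0 in the other 5 libraries. HSPB3, a small heat shock protein of muscle, had 6 counts in Si-LIPG library 3 alone, and DNAJC6, which strips clathrin from vesicles, had 4 in Si-LIPG library 2 alone. The Si-LIPG libraries also had more reads on genes, and its part in these counts was not tested. Other untested genes did not meet these conditions. DNAJB2 had 0, 2 and 6 counts in the NC groups against 7, 12 and 8, and HSPB8 had 2, 1 and 0 against 4, 3 and 12. In the other direction, DNAJC30 had 1, 2 and 5 counts in the NC groups against 0, 0 and 0, and DNAJC4 had 8, 2 and 9 against 1, 1 and 3.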

How the results depend on the processing

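The count of chaperone genes past the criterion was 9 of 33. It was also 9 of 33 with DESeq2 size factors, upper quartile factors or no fold threshold. With DESeq2 it was 12 of 58, against 629 higher and 1064 lower of 14848 genes in all. At 10 counts or more in every library it was 6 of 17, against 410 higher and 656 lower of 2757 genes. With limma on log2(FPKM + 0.1) it was 13 of 33, against 1251 higher and 420 lower of 6574 genes. It was 15 of 33 with library sizes alone, against 1588 higher and 395 lower of 6574. Scaled to all reads it was 22 of 33, against 3030 higher and 2 lower of 6574. At a fold over 2 it was 5 of 33, and the share over all genes at that fold was not computed, so this count has no background. Without a filter it was 16 of 58, against 995 higher and 1049 lower of 14848 genes. With limma on log2(FPKM + 1) it was 15 of 33, against 1509 higher and 403 lower of 6574. When each library was left out it was 2 to 10. Without NC replicate 1 it was 7 of 36, against 614 higher and 693 lower of 7744 genes. Without NC replicate 2 it was 9 of 36, against 709 higher and 907 lower of 7636. Without NC replicate 3 it was 10 of 36, against 761 higher and 931 lower of 7708. Without Si-LIPG replicate 1 it was 6 of 35, against 492 higher and 952 lower of 7182. Without Si-LIPG replicate 2 it was 2 of 33, against 234 higher and 654 lower of 6709 genes. Without Si-LIPG replicate 3 it was 4 of 33, against 239 higher and 632 lower of 6654. The count with an adjusted p under 0.05 (1 of 33) was 9 of 33 scaled to all reads, against 750 of 6574 genes. At 10 counts or more in every library it was 5 of 17, against 714 of 2757 genes. It was 0 with limma under both pseudocounts (15 and 13 past the unadjusted criterion) and 0 to 2 when each library was left out. Over all genes, calls at an adjusted p under 0.05 went from 428 to 0 without NC replicate 1, NC replicate 2, Si-LIPG replicate 2 or Si-LIPG replicate 3, with 1307, 1616, 888 and 871 past the unadjusted criterion. The median log2 fold change (0.37) was 0.98 with library sizes alone, 1.68 scaled to all reads, 0.93 and 1.21 with limma, and 0.16 (without NC replicate 1) to 0.45 when each library was left out. The cause of these shifts was not tested.

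Whether libraries with the same replicate number are paired between the groups was not given in the sources used here, and the main fit took them as unpaired. Deviations from the group means correlated at 0.21, 0.0639 and 0.105 for numbers 1, 2 and 3. Of 6 libraries, 4 correlated best with their own number. Whether this reflects a pairing was not tested. With the replicate block 11 of 33 chaperone genes were past the criterion, against 682 higher and 868 lower of 6574 genes. Of the 33, 6 had an adjusted p under 0.05 (HSP90B1, HSPA5, HSPA8 and CCT8 higher, HSPA12B and DNAJC2 lower). Among the genes named, HSPA8 (0.67) and HSPA9 (0.62) gained the call and DNAJC19 (2.23) lost it. Over all genes, 925 had an adjusted p under 0.05 with the block, against 428 without it.

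Of 298 refits of the 19 genes named, 218 kept their direction and side of the criterion, 32 lost the call, 29 gained one and 19 changed sign. DNAJC2 (0.44), HSPA12B (0.52), DNAJC7 (0.76) and TCP1 (1.497) turned positive when scaled to all reads, as did DNAJC7 (0.043) and TCP1 (0.54) with library sizes alone, DNAJC7 (0.24 and 0.25) and TCP1 (0.49 and 0.49) with limma, and TCP1 at 10 counts in every library (0.15). Values near 0 changed sign when a library was left out, between -0.15 and 0.27 for CCT5, -0.11 and 0.11 for HSP90AA1, -0.94 and 0.078 for DNAJC7 and -0.35 and 0.26 for TCP1. The log2 ratio of HSPA9 to HSPA8 ranged from -0.24 to 0.21, that of HSPH1 to HSPA8 from 0.18 to 0.85, HSPA5 to HSPA8 from 0.05 to 0.25 and CCT3 to CCT2 from -1.08 to -0.52. The depth of 524776 to 1051230 counted reads limits what is said of genes with few counts.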
